A study of Homo sapiens with 9 samples.

Results

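Glycolysis and hypoxia genes were followed in H69 cells, a line of immortalised human cholangiocytes (the epithelial cells of the bile ducts), after treatment with laminin 511-E8 or acetazolamide. The members were 37 named genes, matched by symbol among the 61541 gene identifiers of the count tables: 22 genes of glucose uptake, glycolysis and lactate handling, and 15 genes of oxygen sensing and the response to hypoxia. RNA was sequenced in 9 libraries, 3 from cells given 0.25 µg/cm2 laminin 511-E8 (a recombinant fragment of the laminin that integrins bind in basement membranes), 3 from cells given 10 µM acetazolamide (an inhibitor of carbonic anhydrases), and 3 from control cells given 10 µl DMSO. All 9 came from the same unmodified cell line, which was grown to confluency for 48 h and treated for 48 h with 1 change of medium at 24 h. For each group, RNA of 4 replicates was assessed and the 3 with the highest RNA integrity were sequenced. The labels call these biological replicates of 1 cell line and do not say whether they came from separate passages or days, so p-values measure only the spread between these cultures. The labels give no change of oxygen for any group. They name DMSO for the control group only and do not say whether the treated cells also had it. If they did not, the effect of a treatment cannot be told apart from that of DMSO.

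Glycolysis breaks glucose down to pyruvate in the cytosol, and lactate dehydrogenase turns pyruvate into lactate, which leaves the cell through monocarboxylate transporters. Hypoxia-inducible factor 1 (HIF-1) raises transcription of most of these genes when oxygen is low. Its alpha subunit is made at all times and is destroyed in the presence of oxygen, after prolyl hydroxylases of the EGLN family have marked it, so that the mRNA of HIF1A says little about the activity of the factor.

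Total counts ranged from 12529867 to 39518899 per library, and mitochondrial transcripts took 9.43% to 11.8% of them in 8 libraries and 16.2% in control 2. The cholangiocyte markers EPCAM, KRT19, KRT7, CDH1, SOX9 and CD24 had at least 10 counts in every library. Among markers of other cells, 0 of 4 hepatocyte, 0 of 3 endothelial, 0 of 4 leukocyte and 2 of 5 mesenchymal genes (COL1A1 and PDGFRB) had at least 10 counts in every library. The summed CPM (each count scaled to the total of its library) of these cholangiocyte markers was 2802 to 3164 in laminin 511-E8 libraries, 3329 to 4008 in acetazolamide libraries and 3253 to 3905 in control libraries, and its part in the differences below was not tested. The libraries also differed in how counts depended on the GC content of the transcript. The slope was 0.24 (log2 per 10 percentage points of GC) in laminin 511-E8 2, -0.26 in acetazolamide 2 and 0.36 in acetazolamide 3, against -0.16 to 0.08 in the other 6 libraries.

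The promoters of the members were searched for short sequences that HIF-1 is known to bind. RefSeq windows of GRCh38.p14, each from 250 bases before to 50 bases after a transcription start, were held for 33 of the 37 members. The windows were searched on both strands for ACGTG and GCGTG, the cores of the hypoxia response element. ACGTG is also part of the E-box CACGTG, which reads the same on both strands, is counted as a match on each, and is bound by other factors, BHLHE40 among them. At least 1 match stood in 41 of 61 member windows (67.2%), against 48.4% of all 35116 windows, and among windows of at least 60% GC in 34 of 44 member windows (77.3%), against 64.9% of all. The member genes EGLN3, P4HA2 and PGAM1 had none of these letters in their windows. The stretches below are shown because, among members with a window, their genes had the smallest p-values for laminin 511-E8 (BHLHE40, ADM, PFKFB3) or acetazolamide (LDHA); SLC2A3 and NDRG1 are named only. They run 5′ to 3′ on the plus strand, with each match in capitals, and a match is not evidence of binding. For LDHA the window with 6 matches was used, and a further window (chr11:18396101-18396400), not shown, held 1.
BHLHE40, chr3:4979187-4979304, all 4 matches of its window: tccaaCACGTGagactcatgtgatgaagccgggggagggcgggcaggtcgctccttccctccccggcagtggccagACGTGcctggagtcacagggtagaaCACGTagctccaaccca
ADM, chr11:10304960-10304988, the 1 match of its window: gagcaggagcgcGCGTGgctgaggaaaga
PFKFB3, chr10:6202812-6202841, 2 overlapping matches in 1 of its windows: caccctcctcccCACGTGgaagggggctgg
LDHA, chr11:18394366-18394506, 5 of the 6 matches of its window: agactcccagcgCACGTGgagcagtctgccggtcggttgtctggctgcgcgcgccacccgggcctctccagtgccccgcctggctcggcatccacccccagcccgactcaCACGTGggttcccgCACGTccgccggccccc

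The glycolytic pathway was expressed from end to end in control cells, at very unequal levels. Per kb of exon, ENO1 (enolase) had a level of 201 ± 14.1 CPM in control cells, TPI1 (triosephosphate isomerase) 186 ± 19.3, PKM (pyruvate kinase) 164 ± 7.0 and PGK1 (phosphoglycerate kinase, the first ATP-producing step) 111 ± 13.2 (SD, n = 3 each). These 4 ranked above the 98th percentile of the 15742 tested genes with a known exon length. ENO1 and TPI1 lay within each other's spread, as did TPI1 and PKM, while PGK1 lay below all 3. The enzymes that commit glucose to the pathway were lower. HK1 (hexokinase 1) had 32.9 ± 1.36 CPM per kb in control cells and HK2 (hexokinase 2) 10.8 ± 1.09, and the phosphofructokinase subunits PFKP, PFKL and PFKM had 20.9 ± 2.18, 10.2 ± 2.32 and 9.56 ± 0.921. PFKFB3 and PFKFB4, which set the level of fructose 2,6-bisphosphate, had 3.31 ± 0.469 and 1.11 ± 0.139 CPM per kb in control cells. GPI, which turns glucose 6-phosphate into fructose 6-phosphate, was at 13.8 ± 2.51 CPM per kb in control cells and the phosphoglycerate mutase PGAM1 at 52.5 ± 13.3.

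Isozymes of 1 step differed in level. The aldolase ALDOC (10.7 ± 0.763 CPM per kb in control cells) exceeded ALDOA (2.12 ± 0.645), although ALDOA is listed with a same-strand neighbour, ENSG00000285043, that covers 42.3% of its exon bases, so that reads shared by both may have been left out of its count. The neuronal enolase ENO2 was at 8.05 ± 1.65 CPM per kb in control cells. LDHA (5.44 ± 0.622) and LDHB (4.89 ± 2.43), the subunits of lactate dehydrogenase, did not differ beyond their spread. LDHB also has a same-strand neighbour, ENSG00000285854, over 33.4% of its exon bases. Both genes have processed pseudogenes that took further counts (829 in 6 LDHA pseudogenes, against 6325 in LDHA itself, and 714 in 3 LDHB pseudogenes, against 3363 in LDHB), so their levels are uncertain. Of the glucose transporters, SLC2A1 (9.4 ± 1.03 CPM per kb) was above SLC2A3 (1.95 ± 0.0715) in control cells. Of the lactate transporters, SLC16A3 was at 22.2 ± 5.02 CPM per kb in control cells, whereas SLC16A1 had 0 to 3 counts in each of the 9 libraries, 8 in all, and was the 1 member too low to test.

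Among the hypoxia genes, HIF1A itself had the highest level of all 37 members, with 299.9 ± 19.4 CPM per kb in control cells, at the 99.7th percentile of tested genes. DDIT4, an inhibitor of mTORC1 whose exon bases overlap the antisense gene ENSG00000269926 over 41.2% of their length, followed with 137 ± 20.9, and BNIP3L, a receptor for mitophagy, with 43.9 ± 4.32. ERO1A, which reoxidises protein disulphide isomerase in the endoplasmic reticulum, had 26.7 ± 1.95, and the collagen prolyl hydroxylase subunit P4HA1 had 23.7 ± 1.66. BNIP3, a relative of BNIP3L, had 18.4 ± 2.02, the second collagen prolyl hydroxylase subunit P4HA2 11.5 ± 0.758, BHLHE40 6.36 ± 0.798, KDM3A 5.22 ± 0.22, NDRG1 2.95 ± 0.0434 and PDK1, the kinase that shuts off pyruvate dehydrogenase, 2.29 ± 0.224 CPM per kb in control cells. The prolyl hydroxylases of the oxygen-sensing step were near the lower end, EGLN1 with 0.673 ± 0.17 and EGLN3 with 0.446 ± 0.008 CPM per kb in control cells. Low levels were also found for ADM, the vasodilator peptide adrenomedullin (0.903 ± 0.109), and for ANKRD37 (0.840 ± 0.102), whose exon bases overlap those of UFSP2 on the opposite strand over 35.2% of their length. The strand setting of the counting is not given in the sources used here. Without division by exon length, HIF1A was also the highest member in control cells, with a mean of 1545 ± 99.7 CPM.

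**Figure D1:**
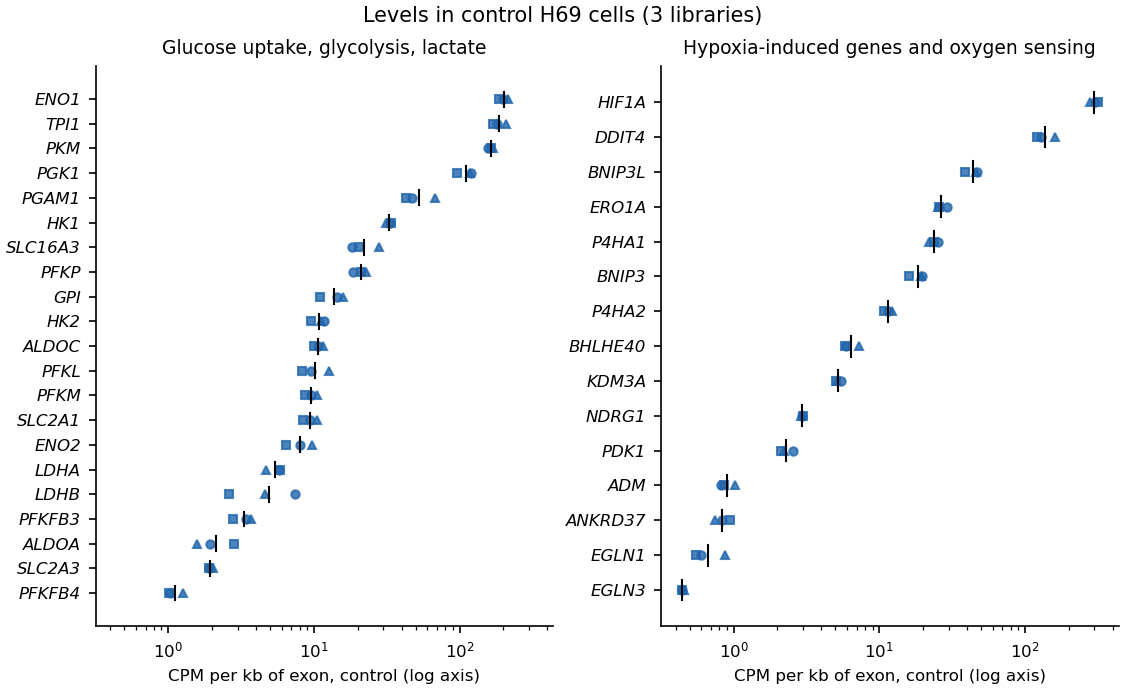
Level of each member with a control mean above 0.1 in the 3 control libraries, as CPM per kb of exon on a log axis (points, by replicate; vertical bars, mean). HIF1A (299.9), ENO1 (201), TPI1 (186), PKM (164), DDIT4 (137) and PGK1 (111) stand above the rest, and EGLN3 (0.446) is lowest.

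Laminin 511-E8 cells had more SLC2A3 mRNA than control cells, by 1.54-fold, but without a correction for GC content 0 members passed the test against control. A positive fold change was found for 29 of 36 tested members, against 7868 of all 15997 genes tested. Counts of 15997 genes were compared with edgeR's quasi-likelihood test, and p-values were adjusted by the Benjamini-Hochberg method. At an adjusted p under 0.05, 0 of 36 members were called, against 0% of all genes tested. At an unadjusted p under 0.05 there were 5 members, all higher (SLC2A3, BHLHE40, ADM, PFKFB3 and NDRG1), against 2.84% of all genes in either direction. DESeq2 called 1 member, SLC2A3, against 21 of the 15997 genes at an adjusted p under 0.05. When the trend of each library with GC content was removed, 1 of 36 members was called, SLC2A3, against 0.299% of the 15737 genes with a known GC content. In that fit 11 members, all higher, had an unadjusted p under 0.05, against 7.5% of these genes in either direction.

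SLC2A3 encodes GLUT3, a glucose transporter with high affinity (chr12:7919230-7936275, minus strand, GENCODE release 29 on GRCh38). It had 18.8, 21.0 and 17.0 CPM in laminin 511-E8 libraries, against 11.7, 11.8 and 12.5 CPM in control libraries. The lowest laminin 511-E8 library was above the highest control library, and the acetazolamide libraries, with 12.1, 11.5 and 11.5 CPM, were at the control level. On the log2 scale the difference between laminin 511-E8 and control was 0.62 ± 0.12 (SE; adjusted p = 0.693, edgeR) without correction and 0.58 ± 0.10 (adjusted p = 0.0350, edgeR) with GC correction. Its GC content is 45.8%, close to the median of 47.7% over tested genes, and the trend moved it by at most 0.09 (log2) in any library. The GC-corrected call was lost when any 1 of the 6 libraries of the comparison was left out (adjusted p 0.0813 to 0.243, edgeR), with log2 differences of 0.50 to 0.65.

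Read as a share within each library, SLC2A3 made up 23.3%, 21.4% and 20.6% of the per-length level of both glucose transporters in laminin 511-E8 libraries, against 16.9%, 18.6% and 16.3% in control libraries. The groups did not overlap, and the difference of 4.50 percentage points had an exact two-sided permutation p of 0.10, the smallest that 3 against 3 libraries can give. SLC2A1, which encodes the widespread transporter GLUT1, had 47.2, 59.1 and 50.3 CPM in laminin 511-E8 libraries, against 44.3, 39.6 and 49.3 CPM in control libraries, and its groups overlapped.

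PFKFB3, whose product makes fructose 2,6-bisphosphate, the activator of phosphofructokinase, had 26.3, 28.9 and 24.4 CPM in laminin 511-E8 libraries, against 21.0, 17.1 and 22.7 CPM in control libraries. The groups did not overlap, and the log2 difference was 0.36 ± 0.13 (unadjusted p = 0.0218, edgeR, across all genes). PGK1 had 718, 740.1 and 679 CPM in laminin 511-E8 libraries, against 664, 530.1 and 647 CPM in control libraries. Control 2, the library with the highest mitochondrial share, was the low one, and the log2 difference for PGK1 was 0.19 ± 0.09 (unadjusted p = 0.0601, edgeR).

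ENO1 had 1207, 1423 and 1148 CPM in laminin 511-E8 libraries, against 1052, 991 and 1139 CPM in control libraries. Its groups were separated by a narrow gap, and the log2 difference was 0.22 ± 0.12. TPI1 had 505, 656 and 494 CPM in laminin 511-E8 libraries, against 490.3, 459 and 561 CPM in control libraries. PKM had 1334, 1666 and 1380.3 CPM in laminin 511-E8 libraries, against 1343, 1400 and 1463 CPM in control libraries. Both groups overlapped for TPI1 and PKM, and in each the second laminin 511-E8 library was the highest of its group. HK2 had 72.2, 83.1 and 73.9 CPM in laminin 511-E8 libraries, against 70.9, 58.2 and 67.7 CPM in control libraries, without overlap. HK1 had 202, 246 and 211 CPM in laminin 511-E8 libraries, against 209, 215 and 198 CPM in control libraries, with overlap, and the share of HK2 within the pair was 26.6 ± 0.559% in laminin 511-E8 cells and 24.8 ± 2.41% in control cells (SD, n = 3 each; exact two-sided permutation p = 0.30).

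Several hypoxia-induced genes were also higher in every laminin 511-E8 library. BHLHE40, a transcriptional repressor that also acts on the circadian clock, had 33.0, 39.2 and 35.6 CPM in laminin 511-E8 libraries, against 22.8, 22.4 and 27.9 CPM in control libraries. The log2 difference was 0.54 ± 0.16 (unadjusted p = 0.00874, edgeR), and with GC correction it was 0.49 ± 0.10 (adjusted p = 0.0947, edgeR). ADM had 3.60, 3.22 and 4.20 CPM in laminin 511-E8 libraries, against 2.24, 2.33 and 2.79 CPM in control libraries. These groups did not overlap either, at 35 to 166 counts per library, and the log2 difference of ADM was 0.60 ± 0.20 (unadjusted p = 0.0138, edgeR).

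NDRG1, a stress-responsive gene of differentiation, had 34.1, 40.4 and 40.9 CPM in laminin 511-E8 libraries, against 28.8, 29.4 and 28.7 CPM in control libraries. The control libraries were within 1.03-fold of each other, and the log2 difference of NDRG1 was 0.38 ± 0.15 (unadjusted p = 0.0330, edgeR). DDIT4 had 334, 428 and 314 CPM in laminin 511-E8 libraries, against 267, 249 and 330.4 CPM in control libraries. Control 3 was above 1 laminin 511-E8 library, so the groups of DDIT4 overlapped in CPM, and its log2 difference was 0.32 ± 0.15 (unadjusted p = 0.0588, edgeR). It was 0.20 without laminin 511-E8 2. After TMM scaling or GC correction the groups of DDIT4 did not overlap, and with GC correction the difference was 0.29 ± 0.06 (adjusted p = 0.0997, edgeR). EGLN3, a prolyl hydroxylase that is itself induced by HIF-1, had 3.72, 3.98 and 4.61 CPM in laminin 511-E8 libraries, against 3.25, 3.25 and 3.35 CPM in control libraries. KDM3A, a histone H3 demethylase, had 82.9, 77.2 and 77.5 CPM in laminin 511-E8 libraries, against 73.3, 67.5 and 69.3 CPM in control libraries, without overlap in either gene.

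Other hypoxia members of high level overlapped between the groups in CPM. HIF1A had 1659, 1379.9 and 1761 CPM in laminin 511-E8 libraries, against 1565, 1633 and 1437 CPM in control libraries, a log2 difference of 0.02 ± 0.17, and of 0.14 ± 0.09 with GC correction. BNIP3L had 191, 126 and 208 CPM in laminin 511-E8 libraries, against 201, 168 and 199 CPM in control libraries. P4HA1 had 90.3, 70.0 and 85.9 CPM in laminin 511-E8 libraries, against 78.2, 74.0 and 68.0 CPM in control libraries. With GC correction the groups of P4HA1 did not overlap, and its log2 difference was 0.16 ± 0.07 (unadjusted p = 0.0338, edgeR). For these 3 genes, whose GC content was 36.4% to 40.8%, the second laminin 511-E8 library was the lowest of its group in CPM.

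**Figure D2:**
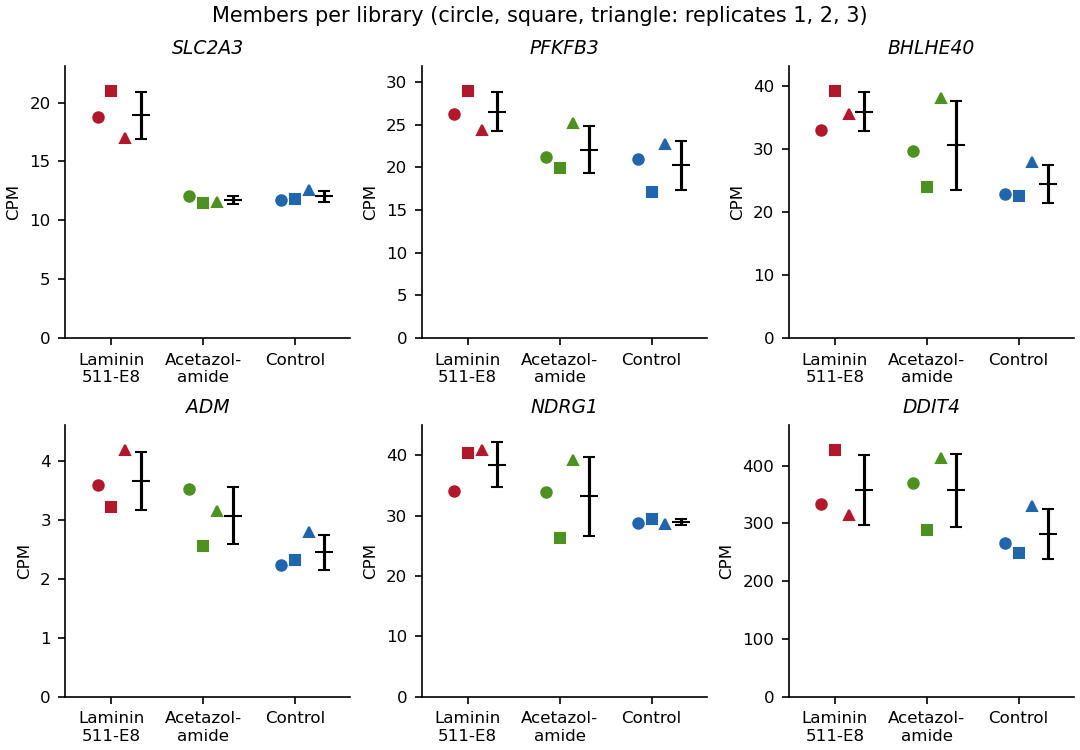
CPM of 6 members in each library (points, by replicate), with mean and SD of each group (n = 3). All 3 laminin 511-E8 libraries lie above all 3 control libraries for SLC2A3, PFKFB3, BHLHE40, ADM and NDRG1, and overlap them for DDIT4 on this scale; for SLC2A3 the acetazolamide libraries (11.5 to 12.1 CPM) lie beside the control libraries (11.7 to 12.5 CPM).

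Counted over both classes, 11 of 36 members had all laminin 511-E8 libraries above all control libraries in CPM, against 5.48% of all genes tested, and 0 had them all below, against 3.03%. Of the 11, 6 were glycolytic (SLC2A3, HK2, PFKFB3, PFKFB4, PGK1 and ENO1) and 5 were hypoxia genes (EGLN3, ADM, NDRG1, KDM3A and BHLHE40). HK2, PFKFB4, PGK1, ENO1, EGLN3 and KDM3A, among the 11, had unadjusted p-values of 0.0601 (PGK1) to 0.206 (KDM3A) in edgeR without GC correction. After TMM scaling, which offsets differences in composition such as the mitochondrial share of control 2, the count was 12, against 4.69% of all genes, and with GC correction it was 17, against 5.58%. The 17 did not include PGK1, and ADM was separated narrowly (GC-corrected CPM of 2.65 in laminin 511-E8 2, against 2.64 in control 2). The median log2 difference was 0.13 over 21 glycolytic members, of which 18 were above 0. It was 0.15 over 15 hypoxia members, of which 11 were above 0. Over all 15997 genes tested the median was -0.0033, and 7868 were above 0. With GC correction these medians were 0.11 and 0.16, beside -0.01. Members of 1 pathway tend to vary together between cultures and are not independent of each other.

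LDHA went the other way in the glycolytic class, with 26.1, 28.7 and 31.6 CPM in laminin 511-E8 libraries, against 35.7, 36.4 and 29.4 CPM in control libraries. Its groups overlapped, and the log2 difference was -0.26 ± 0.18. The other glycolytic members below 0 were LDHB and PGAM1. The 12 members whose libraries are not listed here (PFKM, PFKP, PFKFB4, ALDOA, ALDOC, PGAM1, SLC16A3, PDK1, EGLN1, BNIP3, ANKRD37 and P4HA2) had log2 differences from -0.13 (ANKRD37) to 0.29 (PFKFB4) for laminin 511-E8 against control, and from -0.16 (PGAM1) to 0.38 (ALDOA) for acetazolamide against control.

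Outside the members, further genes of the same pathways were read from the same fit. Of 28 tested genes of the wider glycolysis and pyruvate list, 0 passed without correction and 0 had an unadjusted p under 0.05. In that fit 8 were above 0 and 20 below. With GC correction 0 of the 28 passed, and again 8 were above 0 and 20 below. At an unadjusted p under 0.05 (edgeR), 2 were then higher and 4 lower, against 7.5% of all genes in either direction. Of 38 tested genes of the wider hypoxia list, 0 passed without correction, and 5 had an unadjusted p under 0.05, all higher, against 2.84% of all genes in either direction. With GC correction 9 were higher and 1 lower at an unadjusted p under 0.05, against 7.5% of all genes in either direction. Among the 5 were VEGFA (a growth factor for blood vessels), STC1 (stanniocalcin), and CA12 and CA9, carbonic anhydrases of the class that acetazolamide inhibits. VEGFA had 68.6, 75.5 and 76.4 CPM in laminin 511-E8 libraries, against 40.3, 40.3 and 43.8 CPM in control libraries, a log2 difference of 0.80 ± 0.12 (adjusted p = 0.199, edgeR). With GC correction VEGFA (0.76 ± 0.09, adjusted p = 0.00608) and STC1 (0.52 ± 0.09, adjusted p = 0.0350) rose in this edgeR fit.

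**Figure D3:**
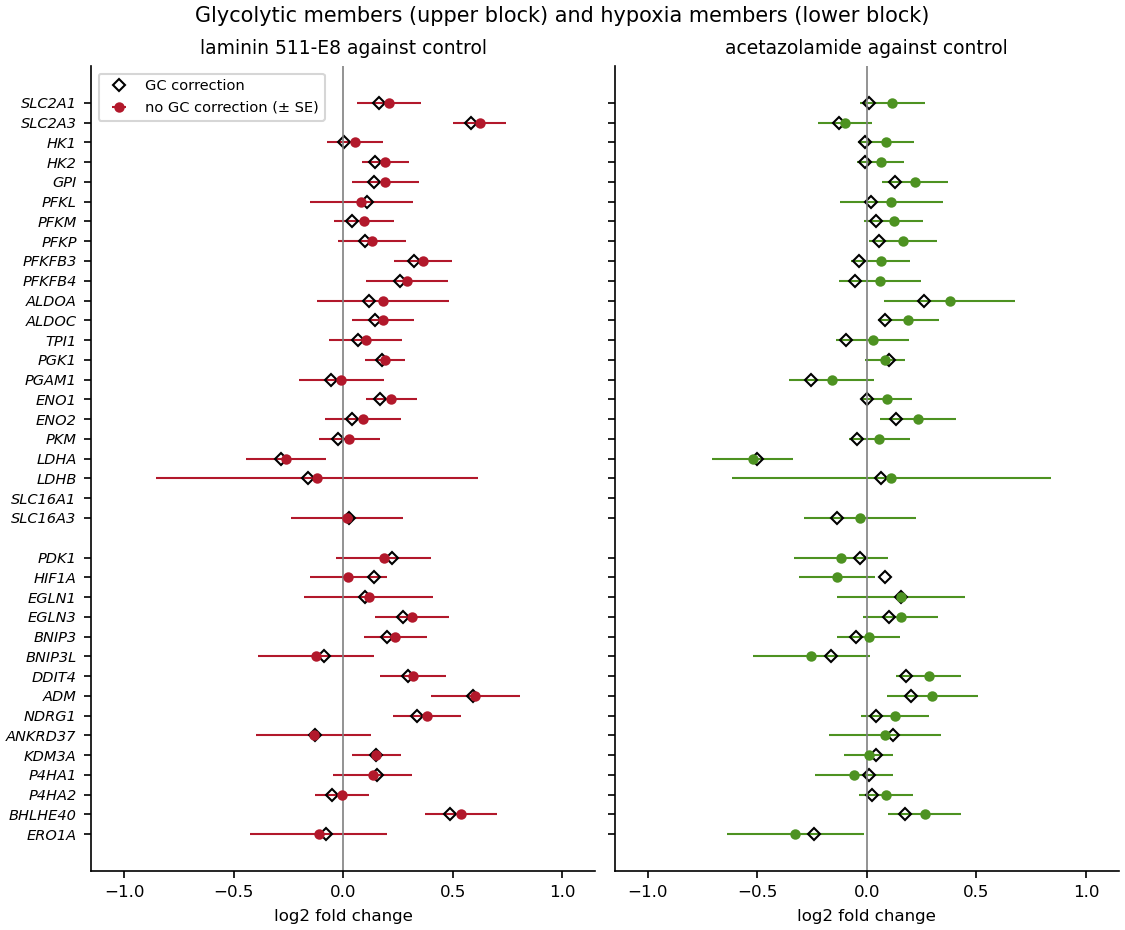
Log2 fold change of each tested member for laminin 511-E8 against control (left) and acetazolamide against control (right), which share the control libraries. Filled points with bars are estimates without GC correction and their SE, open diamonds those with GC correction; SLC2A3, ADM and BHLHE40 have the 3 largest estimates for laminin 511-E8 (0.62, 0.60 and 0.54), and LDHA the lowest for acetazolamide (-0.52).

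In acetazolamide cells, 0 members passed the test of edgeR against control cells with or without GC correction (0% of all genes in both fits). At an unadjusted p under 0.05 without GC correction there was 1 member, LDHA, against 1.83% of all genes. With GC correction there were 2, LDHA (lower) and DDIT4 (higher), against 4.42% of all genes in either direction. DESeq2 without GC correction called 0 members, against 7 of 15997 genes at an adjusted p under 0.05. LDHA had 26.9, 18.6 and 28.9 CPM in acetazolamide libraries, against 35.7, 36.4 and 29.4 CPM in control libraries. The groups were separated by less than 1 CPM, and the log2 difference was -0.52 ± 0.18 (unadjusted p = 0.0181, adjusted p = 1.0, edgeR) and -0.50 ± 0.19 with GC correction. With 1 library left out it ran from -0.65 (without control 3) to -0.36 (without acetazolamide 2), and with GC correction also applied from -0.67 (without acetazolamide 3) to -0.29 (without acetazolamide 2). LDHA was the 1 member with every acetazolamide library lower than every control library in CPM, against 1.18% of all genes. EGLN3, with 4.16, 3.66 and 3.52 CPM in acetazolamide libraries, against 3.25, 3.25 and 3.35 CPM in control libraries, was the 1 member with every library higher in CPM, against 5.22% of all genes. After TMM scaling its groups overlapped, and 0 members had every library higher, against 3.21% of all genes, while 2 had them all lower (LDHA and SLC2A3), against 2.11%. With GC correction 1 member was higher in every library (DDIT4), against 3.67% of all genes, and 1 lower (LDHA), against 6.14%. EGLN3 and KDM3A were chosen after their values were seen.

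The other members with the smallest p-values for acetazolamide were GPI, ENO2, DDIT4, BHLHE40 and ADM, all overlapping between groups in CPM. GPI had 177, 150.3 and 208 CPM in acetazolamide libraries, against 154, 118 and 170.4 CPM in control libraries. ENO2 had 43.6, 34.9 and 47.8 CPM in acetazolamide libraries, against 34.4, 27.5 and 41.6 CPM in control libraries. DDIT4 had 369, 289 and 413 CPM in acetazolamide libraries, against 267, 249 and 330.4 CPM in control libraries. In all 3 the third acetazolamide library was the highest and the second the lowest of the group. BHLHE40 had 29.6, 24.0 and 38.1 CPM in acetazolamide libraries, against 22.8, 22.4 and 27.9 CPM in control libraries, and ADM had 3.53, 2.56 and 3.15 CPM, against 2.24, 2.33 and 2.79 CPM. Without GC correction, the unadjusted p-values of these 5 genes ran from 0.0899 to 0.207 (edgeR). With GC correction the log2 difference of DDIT4 was 0.18 ± 0.06 (unadjusted p = 0.0148, adjusted p = 0.923, edgeR).

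The direction of the glycolytic members under acetazolamide depended on the GC correction. Without it, 17 of 21 glycolytic members were above 0, with a median log2 difference of 0.09. With it, 10 of 21 were above 0, with a median of -0.0010. Over all genes tested, 8166 of 15997 were above 0 without the correction and 6808 of 15737 with it. Of the 15 hypoxia members 10 were above 0 without correction and 11 with it. The summed level of the glycolytic members was 5249 ± 895 CPM in acetazolamide cells and 4802 ± 355 CPM in control cells (SD, n = 3 each), and that of the hypoxia members was 2626 ± 390 CPM in acetazolamide cells and 2657 ± 50.2 CPM in control cells. HIF1A took more than any other hypoxia member of this sum, which without it was 1158 ± 77.1 CPM in acetazolamide cells and 1112 ± 77.3 CPM in control cells. In laminin 511-E8 cells the glycolytic sum was 5312 ± 635 CPM, and the hypoxia sum was 2829 ± 249.6 CPM with HIF1A and 1229 ± 52.5 CPM without it.

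When the treatments were set against each other, SLC2A3 stood apart again. Its log2 difference between laminin 511-E8 and acetazolamide was 0.72 ± 0.12 (adjusted p = 0.714, edgeR) without correction, where 0 members were called, against 0% of all genes. With GC correction it was 0.71 ± 0.10 (adjusted p = 0.0140, edgeR), and SLC2A3 was the 1 member called, against 0.146% of all genes. This call was also lost when any 1 of the 6 libraries was left out (adjusted p 0.0577 to 0.113, edgeR). At an unadjusted p under 0.05 without GC correction there were 2 members, SLC2A3 and PFKFB3, against 2.34% of all genes. With GC correction there were 10, all higher in laminin 511-E8 cells, against 5.36% of all genes in either direction.

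SLC2A3 was the 1 member with every laminin 511-E8 library above every acetazolamide library in CPM, against 2.11% of all genes, and 0 members had them all below, against 3.84%. After TMM scaling 3 members were above (SLC2A3, PFKFB3 and PGK1), against 3.01% of all genes, and with GC correction 13 were, against 6.41%. The log2 difference of PFKFB3 was 0.30 ± 0.13 (unadjusted p = 0.0470, edgeR). In the wider hypoxia list, VEGFA (0.65 ± 0.09, adjusted p = 0.0140) and CA12 (0.64 ± 0.09, adjusted p = 0.0140) were higher in laminin 511-E8 than in acetazolamide cells in the GC-corrected edgeR fit. Against control in that fit, the log2 difference of CA12 was 0.37 ± 0.09 in laminin 511-E8 cells (adjusted p = 0.143, edgeR). In acetazolamide cells it was -0.27 ± 0.09 (adjusted p = 0.923, edgeR). Without correction 0 genes of that list passed between the treatments.

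In the 3 libraries with the steepest slopes with GC content, members were split by their own GC content as a description, since these libraries were chosen for that slope. The median GC content was 53.2% for glycolytic members and 44.1% for hypoxia members, against 47.7% for all genes tested. Of 22 tested members with at least 50% GC, 20 were higher in laminin 511-E8 2 than in the other libraries of its group, 21 were lower in acetazolamide 2 and 21 were higher in acetazolamide 3, against 90.4%, 88.4% and 89.8% of all tested genes with at least 50% GC. Of 14 tested members below 50% GC, 9 were lower in laminin 511-E8 2, 8 were higher in acetazolamide 2 and 10 were lower in acetazolamide 3, against 67.3%, 72.6% and 70.8% of all tested genes below 50% GC. ERO1A, with 38.7% GC, had 207, 126 and 234 CPM in laminin 511-E8 libraries and 164, 238 and 99.9 CPM in acetazolamide libraries, against 219, 194 and 192 CPM in control libraries. PFKL, with 64.1% GC, had 83.4, 129 and 82.1 CPM in laminin 511-E8 libraries and 107, 71.0 and 129 CPM in acetazolamide libraries, against 84.8, 74.2 and 114 CPM in control libraries. ERO1A and PFKL were chosen after their values were seen, as examples of low and high GC content.

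**Figure D4:**
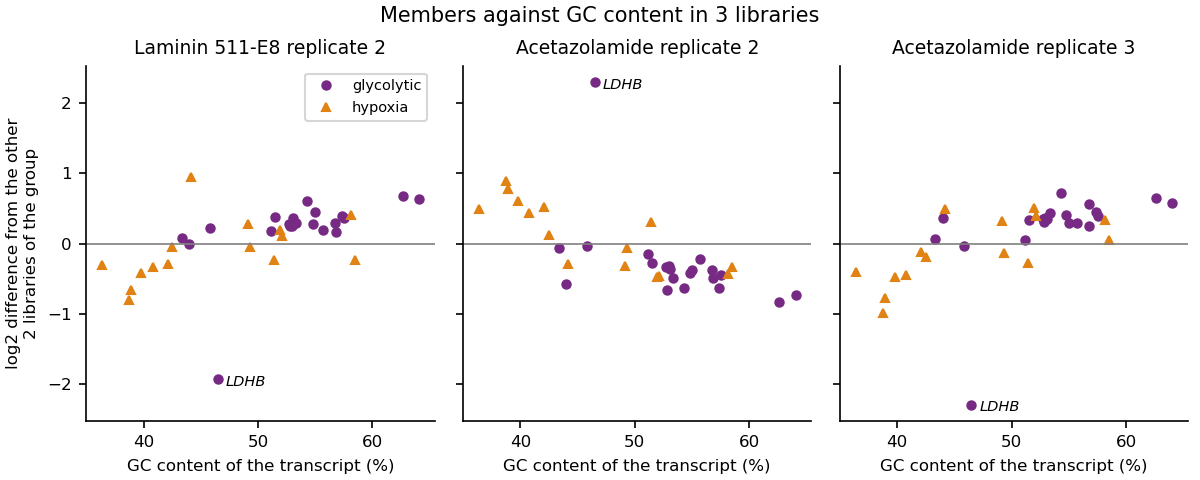
Log2 difference of each tested member between 1 library and the other 2 libraries of its group, plotted against the GC content of its longest annotated transcript, in 3 libraries. Members of high GC content lie mostly above 0 in laminin 511-E8 2 (20 of 22) and acetazolamide 3 (21 of 22) and below 0 in acetazolamide 2 (21 of 22); LDHB, at -1.93, -2.29 and 2.29, lies far from members of similar GC content.

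LDHB varied more between replicate cultures than any other member. It had 21.6, 4.40 and 15.3 CPM in laminin 511-E8 libraries and 11.4, 33.8 and 3.64 CPM in acetazolamide libraries, against 22.2, 7.75 and 13.8 CPM in control libraries. The highest library exceeded the lowest 4.90-fold in the laminin 511-E8 group, 9.29-fold in the acetazolamide group and 2.87-fold in the control group. Its pooled SD within groups was 1.18 (log2), at the 99.9th percentile of tested genes, against a median of 0.22 over members and 0.24 over all genes. Its counts were 60 to 832 per library, and its GC content was 46.5%. LDHA ranged 1.55-fold within a group at most.

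The share of LDHA in the per-length level of both dehydrogenase genes was 36.7%, 75.8% and 49.9% in laminin 511-E8 libraries and 53.2%, 20.9% and 79.2% in acetazolamide libraries, against 43.6%, 69.3% and 50.5% in control libraries. The differences from control were -0.316 percentage points for laminin 511-E8 (exact two-sided permutation p = 0.90) and -3.34 percentage points for acetazolamide (exact p = 1.0). A shift between the isozymes was not detectable with this spread. At the other end, KDM3A and SLC2A3 had pooled SDs of 0.08 and 0.09 (log2), at the 4.74th and 7.07th percentiles.

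**Figure D5:**
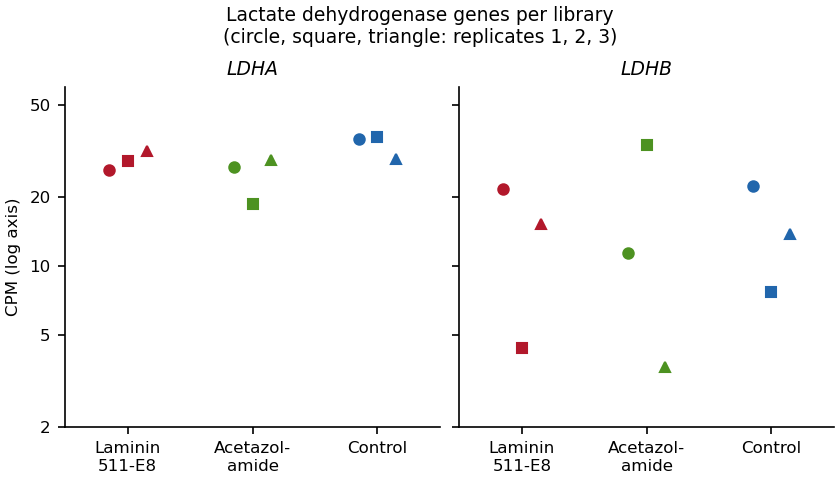
CPM of LDHA and LDHB in each library on a log axis (points, by replicate). LDHB spans 3.64 to 33.8 CPM among acetazolamide libraries and 4.40 to 21.6 CPM among laminin 511-E8 libraries, against 7.75 to 22.2 CPM among control libraries, while LDHA stays between 18.6 and 36.4 CPM in all 9.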

How the data were processed

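Poly(A) RNA libraries were made from 9 cultures of H69 cells. The deposited values were raw gene counts. The submitters' processing notes list Trimmomatic 0.39, FastQC 0.11.9, HTSeq 0.11.0 and HISAT2 2.2.1, with GRCh38 as the genome. Which annotation release and strand option were used, and how multi-mapping reads were handled, is not given in the sources used here. Of 61541 identifiers, 61369 were named from an identifier table and 159 from GENCODE release 29, which also gave exon lengths and GC content (58312 genes).

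CPM used the total count, at which 3 counts correspond to 0.0759 to 0.239 CPM. Group comparisons used edgeR 4.0.16 in R 4.3.3 (TMM, filterByExpr, robust quasi-likelihood fit, all 9 libraries, 15997 genes; Benjamini-Hochberg, 0.05), without and with an offset that removed each library's trend with GC content (local regression, span 0.3, 15737 genes). Alternatives were DESeq2 1.42.0, limma 3.58.1 (voom), other scalings and filters, 6 libraries, a replicate block, a stricter threshold (0.01) and leaving out each library. The script was tested on simulated data. Pair shares were tested by exact permutation. The members, gene lists, tests and the GC correction were chosen with earlier results of these data known. Members are named with library values if they passed any fit, were among the 3 smallest p-values of their class in a comparison, belonged to the pairs LDHA and LDHB, HK1 and HK2 or SLC2A1 and SLC2A3, or had 1 of the 4 highest mean levels per length of their class over the 9 libraries. For some of them only the libraries of 1 treatment and of control are printed. EGLN3, KDM3A, ERO1A and PFKL were named after their values were seen. Plots used Python 3.11.15 and matplotlib 3.10.9. The levels of some genes in the lists are not reported here.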

Additional observations from a re-analysis of the deposited data

How the results depend on the processing

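The counts of called genes depended on the test and on the GC correction. For laminin 511-E8 against control, the 0 genes of the edgeR fit became 21 with DESeq2, 47 with GC correction, 11 with GC correction at a threshold of 0.01 and 150 with GC correction in DESeq2. With 1 library left out they stayed at 0 in all 6 cases without GC correction and ranged from 0 to 36 with it. For acetazolamide against control, the 0 genes became 7 with DESeq2 and 13 with GC correction in DESeq2; with 1 library left out they stayed at 0 without GC correction and ranged from 0 to 3 with it. For laminin 511-E8 against acetazolamide, they became 19 with DESeq2, 23 with GC correction, 1 with GC correction at 0.01 and 92 with GC correction in DESeq2; with 1 library left out they stayed at 0 without GC correction and ranged from 0 to 19 with it. The cause was not tested. DESeq2 was given 15997 genes without GC correction and 15737 with it, as was edgeR. Among members, DESeq2 called 1, GC correction 1 and GC correction in DESeq2 3 (SLC2A3, DDIT4 and BHLHE40) for laminin 511-E8 against control, and each called 1, SLC2A3, against acetazolamide. SLC2A3 kept its direction under all 22 alternatives, with log2 differences of 0.50 to 0.68 against control and 0.63 to 0.78 against acetazolamide.

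Ranges with 1 library left out cover the fits with and without GC correction. Of 660 alternative fold changes of 10 named members, 27 had the opposite sign, and 0 of these had an adjusted p under 0.05 in edgeR or DESeq2. For PFKFB3 in acetazolamide against control, the log2 difference was -0.035 with GC correction, -0.031 with the replicate block and GC correction and -0.038 with GC correction in DESeq2, and -0.11 to 0.12 with 1 library left out. For GPI in laminin 511-E8 against acetazolamide, it was 0.013 with GC correction, 0.015 with the block and GC correction and 0.013 with GC correction in DESeq2, and -0.14 to 0.076 with 1 library left out. With 1 library left out, ENO2 ranged from -0.064 to 0.20 for laminin 511-E8 against control, NDRG1 from -0.0097 to 0.26 for acetazolamide against control, and DDIT4 from -0.087 to 0.14 and PGK1 from -0.0098 to 0.16 for laminin 511-E8 against acetazolamide. NDRG1 and PGK1 turned only with GC correction as well, and ranged from 0.015 to 0.26 and from 0.096 to 0.12 without it. The share of LDHA ranged from -11.2 to 8.38 percentage points for laminin 511-E8 minus control and from -17.4 to 11.8 for acetazolamide minus control, and the share of HK2 from -1.59 to 1.13 for acetazolamide minus control.

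Replicate numbers did not show as pairs in levels without GC correction. Same-numbered libraries correlated at -0.65 to 0.24 in their deviations from the group means, with 2 of 9 pairs over 0.1. In these correlations 0 of 9 libraries correlated best with its own number. They still hold the GC trends of the libraries. The lowest, -0.65, was between acetazolamide 2 and laminin 511-E8 2, whose GC slopes were -0.26 and 0.24. Pairing after GC correction was not tested by correlation. With the replicate number as a block 0 genes were called in every comparison, also with GC correction (lowest adjusted p of any gene 0.0584 for laminin 511-E8 and 0.224 for acetazolamide against control, and 0.0937 between the treatments, edgeR). The exact test of paired shares cannot go below 0.25 with 3 pairs.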
